A study of Homo sapiens with 4 samples.

Results

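The genes described are 10 members of the base excision repair pathway, UNG, TDG, MBD4, SMUG1, OGG1, APEX1, PARP1, XRCC1, LIG3 and POLB. They were chosen by gene symbol, for their known place in the pathway and with earlier results of these data known. They come from the 18132 genes of the array that have a probe set with 1 gene symbol. The array reads a transcript through a set of short oligonucleotides, a probe set, and 33 of 44994 such probe sets belong to these genes. Each gene is represented by its probe set of highest mean, and by that choice all 10 lay above background on all 4 arrays. RNA came from MDS-L, a human myelodysplastic syndrome (MDS) cell line that needs IL-3 to grow, and from SKM-1, an MDS-derived leukemia cell line. Each line received decitabine (DAC), a cytidine analog that is built into DNA and traps DNA methyltransferases, at 1 μM in daily pulses for 5 days, or DMSO, the solvent, as a control. Each of the 4 combinations of cell line and treatment was measured on 1 PrimeView array, so no condition had a replicate and no test was possible within a cell line. Values are log2 expression values as deposited, and a difference is DAC minus DMSO on the log2 scale.

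Base excision repair removes single damaged or wrong bases from DNA. A DNA glycosylase cuts off the base, an endonuclease opens the strand at the abasic site that remains, and a polymerase and a ligase replace 1 nucleotide (short patch) or several (long patch). The pathway also takes part in active DNA demethylation, because TDG removes the oxidized forms of methylcytosine that TET enzymes make, and TDG and MBD4 repair the mismatches left when methylcytosine loses its amino group.

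The background level of the arrays, the 90th percentile of 359 olfactory receptor probe sets on each array, ran from 4.84 to 5.09. The myeloid progenitor markers KIT and HLA-DRA lay between 8.84 and 13.2 on the MDS-L arrays, whereas KIT on both SKM-1 arrays and HLA-DRA on the SKM-1 DMSO array were under background, and MPO, a granule enzyme, reached 9.76 or more in SKM-1 and 5.48 or less in MDS-L. CD3D, a T cell receptor chain, went from under background to 8.91 with DAC in MDS-L, and the B cell marker MS4A1 was under background on all 4 arrays. Of the 4 measured lymphoid, erythroid and monocyte markers in MDS-L, all were above 0, as were 53.7% of all measured genes. The 2 markers CD3D and CD14 were at least 2-fold higher, as were 3.62% of all measured genes. CD14 was under 2-fold with centred differences (0.98), and CD3D went from 4.06 to 1.77 with the median over probe sets. With DAC, 13 of 14 replication and proliferation markers were at least 2-fold lower in MDS-L (median difference -1.61) against 0 of 14 in SKM-1 (median -0.10). The part of these marker differences in the results below was not tested, and in bulk RNA fewer cells of a kind and less RNA per cell cannot be told apart.

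The promoters of 8 of the 10 genes were taken from RefSeq (GRCh38.p14), as the 250 bases before each annotated start site. They are printed for UNG, which has 2 start sites, and for TDG, because these genes had the largest decreases that both cell lines share. XRCC1 is printed too, as it was not lower in either line by its representing probe set. SMUG1 and POLB had no entry. Capitals mark E2F-type letters, either TTCCCGC or TTCGCGC or TTGCCGC or TTGGCGC, searched on both strands. E2F factors drive genes of S phase.
UNG, first start site, chr12:109097347-109097596, plus strand: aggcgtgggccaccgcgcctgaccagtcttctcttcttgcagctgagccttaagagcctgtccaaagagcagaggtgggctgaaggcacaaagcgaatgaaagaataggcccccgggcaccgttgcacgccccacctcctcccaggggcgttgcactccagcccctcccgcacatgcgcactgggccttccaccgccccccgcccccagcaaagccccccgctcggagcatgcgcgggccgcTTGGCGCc
UNG, second start site, chr12:109097922-109098171, plus strand: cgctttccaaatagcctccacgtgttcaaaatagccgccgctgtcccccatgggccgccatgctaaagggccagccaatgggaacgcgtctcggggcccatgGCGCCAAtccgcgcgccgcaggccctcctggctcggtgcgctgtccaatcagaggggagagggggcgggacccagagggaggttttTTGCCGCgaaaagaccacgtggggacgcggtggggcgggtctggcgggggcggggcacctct
TDG, chr12:103965622-103965871, plus strand: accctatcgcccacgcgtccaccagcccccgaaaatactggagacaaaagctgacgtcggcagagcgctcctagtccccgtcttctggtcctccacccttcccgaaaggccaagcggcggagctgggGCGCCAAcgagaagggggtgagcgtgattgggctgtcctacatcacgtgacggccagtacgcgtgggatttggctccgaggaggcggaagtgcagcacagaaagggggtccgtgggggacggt
XRCC1, chr19:43575528-43575777, minus strand: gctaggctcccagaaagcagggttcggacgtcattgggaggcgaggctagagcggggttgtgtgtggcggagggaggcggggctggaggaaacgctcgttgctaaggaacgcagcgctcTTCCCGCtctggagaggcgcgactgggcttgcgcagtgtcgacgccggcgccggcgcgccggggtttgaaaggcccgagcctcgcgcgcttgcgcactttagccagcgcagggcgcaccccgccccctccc
The first UNG promoter holds 1 match, which begins 8 bases before the start site, and the second holds 2, of which 1 overlaps a CCAAT box. TDG, XRCC1, PARP1 and OGG1 hold 1 match each, whereas MBD4, APEX1 and LIG3 hold 0. The part of such letters in the differences was not tested. Of the 9 promoters of these genes, 2 of them from UNG, 6 hold such letters. This stands beside 10.9% of all 35116 promoters of the same length and 7 of 16 promoters of the replication and proliferation markers. The E-box (CACGTG) was in 4 of the 9, against 6.34% of all promoters. The CCAAT box was in 6 (32.0% of all) and the GC box (GGGCGG) in 7 (42.6%), so the higher share was not particular to E2F-type letters. A match is a run of letters and no measured binding site. All 9 promoters hold more CpG, the dinucleotide that DNA methyltransferases modify, than the median of all promoters. They hold 16 to 30 CpGs each, where that median is 11. By rank they run from APEX1, above 59.0% of all promoters, to XRCC1, above 87.6%. No methylation was measured in these samples.

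UNG, the main enzyme that removes uracil from DNA, had the largest decrease of the 10 genes in both cell lines. In MDS-L it stood at 7.90 with DMSO and 5.61 with DAC, which is 4.91-fold lower. The SKM-1 arrays gave 9.03 and 8.00, which is 2.05-fold lower. Both DAC values were lower than the DMSO value of the same line, and the SKM-1 DAC value was still above the MDS-L DMSO value. It was the only member at least 2-fold lower in either line, as were 3.18% of all 12688 measured genes in MDS-L. For SKM-1 the share was 1.43% of 12714. The SKM-1 call was lost after quantile normalization, which gave -0.95 for UNG, and with the median over probe sets TDG joined UNG in MDS-L. In MDS-L, 14 genes had a larger decrease than UNG, and in SKM-1, 160 genes did. Of the other genes measured in both lines, 0 were lower by at least as much as UNG in both. The limits of this count are the values of UNG itself, so it is a description only and does not set UNG apart. At least 2-fold lower in both lines were 19 of 11984 genes, or 0.159%. The second probe set of UNG gave at least 3.93-fold lower in MDS-L, where the DAC value lay under background, and 3.12-fold lower in SKM-1.

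Among genes measured in both lines, those with the profile nearest to UNG over the 4 arrays were MCM6, KIF15, CDCA7L, PLK4 and BUB1B. Nearness was the Euclidean distance between log2 values centred on each gene's mean, from 0.23 for MCM6 to 0.40 for BUB1B. MCM6 is a subunit of the replicative helicase, KIF15 a spindle motor, PLK4 the kinase of centriole duplication and BUB1B a spindle checkpoint kinase. MCM6 differed by -2.04 in MDS-L and -0.84 in SKM-1, beside -2.29 and -1.03 for UNG. A distance over 4 arrays ranks many genes on few values and is a description only.

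**Figure D1:**
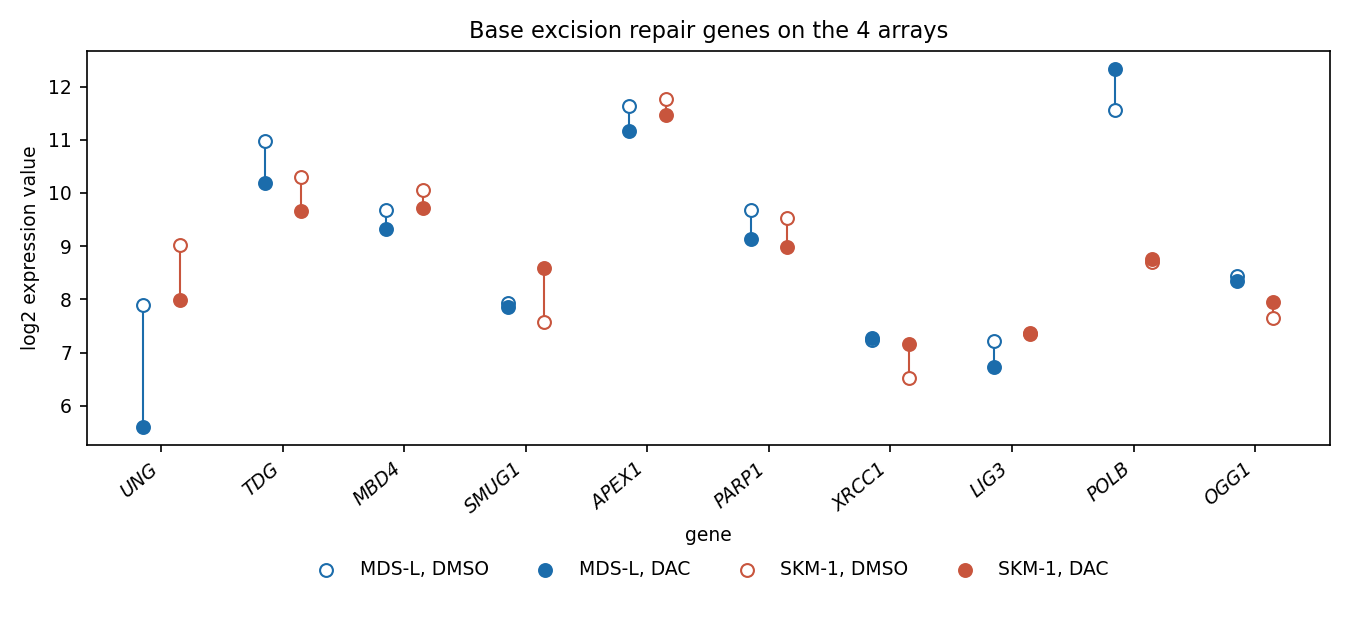
The log2 expression value (vertical axis) of each of the 10 genes (horizontal axis) on the MDS-L and SKM-1 arrays, with open points for DMSO and filled points for DAC, 1 array each and thus no error bars. UNG goes from 7.90 to 5.61 in MDS-L, POLB lies far higher in MDS-L than in SKM-1, and heights of different genes are not comparable because their probes differ.

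TDG, which excises thymine or uracil opposite guanine and oxidized methylcytosine, was lower with DAC in both lines by similar amounts. It went from 10.97 to 10.19 in MDS-L (1.72-fold lower) and from 10.30 to 9.66 in SKM-1 (1.56-fold lower). Its other probe set above background gave larger decreases, -1.23 and -0.85. The representing probe set has the suffix _s_at, and the one with -1.23, or 2.35-fold, has the suffix _a_at. MBD4, a glycosylase with a domain that binds methylated CpG, was lower by 1.29-fold in MDS-L, from 9.68 to 9.31, and by 1.27-fold in SKM-1, from 10.06 to 9.72. All 5 probe sets of MBD4 were below 0 in each line, between -1.19 and -0.37 for MDS-L and between -1.15 and -0.19 for SKM-1. The -1.15 and another at -0.58 in SKM-1 are bounds, because their DAC values lay under background.

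SMUG1, another glycosylase for uracil in the nucleus, stood apart from UNG. Its values were 7.94 with DMSO and 7.85 with DAC in MDS-L, and 7.58 and 8.58 in SKM-1, so the SKM-1 DAC array was the highest of the 4. The value was 2.01-fold higher with DAC in SKM-1, the only member at least 2-fold higher there, as were 2.71% of all measured genes. In MDS-L 0 members reached that size, which 3.62% of all measured genes there did. The difference of 1.00 lies at the threshold, the second probe set gave 0.45, and with centred differences the first gave 0.95. In MDS-L both probe sets were near 0, at -0.09 and -0.13, and the first became 0.05 after quantile normalization.

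OGG1, which removes oxidized guanine, was close to level in MDS-L, at 8.44 with DMSO and 8.35 with DAC, and was 1.22-fold higher in SKM-1, at 7.65 and 7.94. All 4 of its probe sets were below 0 in MDS-L, from -0.77 to -0.09, and above 0 in SKM-1, from 0.20 to 0.76. The representing probe set was at 0.03 in MDS-L after quantile normalization, so its sign there depended on scaling.

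APEX1, the main endonuclease for abasic sites, was slightly lower with DAC in both lines. Its single probe set went from 11.63 to 11.17 in MDS-L (1.38-fold lower) and from 11.76 to 11.46 in SKM-1 (1.23-fold lower). PARP1, which binds strand breaks and makes poly(ADP-ribose), was lower by nearly the same amount in each line. It went from 9.68 to 9.13 in MDS-L, 1.47-fold lower, and from 9.52 to 8.99 in SKM-1, 1.45-fold lower. All 4 probe sets of PARP1 were below 0 in both lines, between -0.97 and -0.33 for MDS-L and between -0.91 and -0.08 for SKM-1.

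XRCC1, the scaffold that holds the ligase and the polymerase at the break, was not lower in either line by its representing probe set. It stood at 7.24 and 7.27 in MDS-L, a difference of 0.03 that was -0.004 with differences centred on the median of all genes. In SKM-1 it stood at 6.53 with DMSO and 7.16 with DAC, 1.55-fold higher, but its other probe sets there gave -0.24 and 0.10. LIG3, the ligase that pairs with XRCC1, was 1.40-fold lower in MDS-L, from 7.21 to 6.73, and level in SKM-1, at 7.37 and 7.36. Of its 8 probe sets, 3 lay above background in MDS-L, all below 0, and 4 did in SKM-1, from -0.65 to 0.20.

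POLB, the polymerase that fills the short patch, had the highest DAC difference of the members in MDS-L and the largest difference between the cell lines. Its single probe set stood at 11.56 with DMSO and 12.34 with DAC in MDS-L, and at 8.71 and 8.75 in SKM-1. The DAC value was thus 1.71-fold higher in MDS-L, while the SKM-1 difference was 0.05 and became -0.004 after centring. Both MDS-L arrays lay above both SKM-1 arrays, by 7.25-fold with DMSO and 12.0-fold with DAC.

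**Figure D2:**
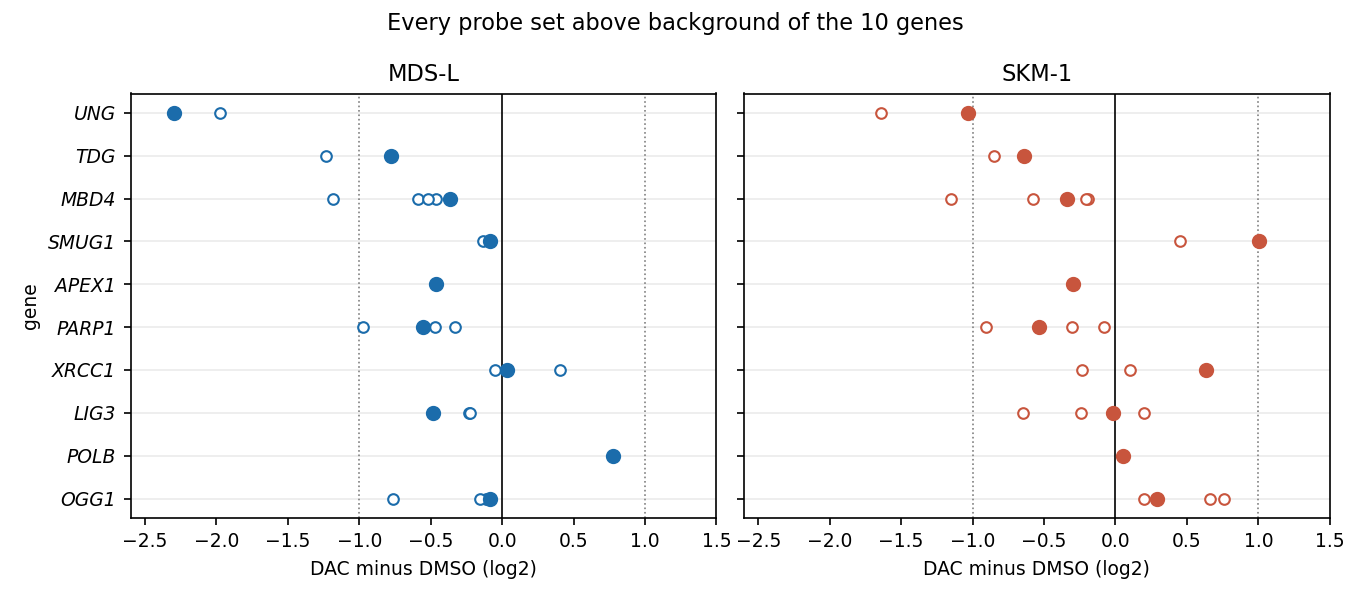
The difference DAC minus DMSO (log2, horizontal axis) of every probe set above background for the 10 genes (vertical axis) in MDS-L and SKM-1, with filled points for the probe set that represents a gene, open points for the others, and dotted lines at 2-fold. Both UNG probe sets lie beyond the line on the lower side in both lines (the open one in MDS-L is a bound). Some open points of MBD4 in SKM-1 and of LIG3 in both lines are bounds too. The 4 OGG1 probe sets lie below 0 in MDS-L and above 0 in SKM-1.

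In MDS-L, 8 of the 10 members were below 0, as were 46.3% of all measured genes, and 2 were above 0, as were 53.7%. For SKM-1 the counts were 6 below 0 (45.2% of all measured genes) and 4 above 0 (54.8%). The members' median difference was -0.41 for MDS-L, beside 0.04 over all measured genes, but only -0.16 for SKM-1, beside 0.05. Quantile normalization gave 6 and 5 members below 0, and centring on the median of all genes gave 9 and 7. UNG, TDG, MBD4, APEX1, PARP1 and LIG3 were below 0 in both lines, although LIG3 in SKM-1, at -0.02, was at 0.06 after quantile normalization. Among genes measured in both lines, 28.5% were below 0 in both. SMUG1 and OGG1 were below 0 in MDS-L and above 0 in SKM-1, as were 19.0% of those genes. The share of all probe sets below 0 was not computed, so the counts of member probe sets stand without one. Of the member probe sets above background, 24 of 27 were below 0 for MDS-L and 18 of 28 for SKM-1. These probe sets share genes and RNA samples and are no replicates. Between probe sets of 1 gene, the pooled standard deviation of differences over all genes was 0.27 (MDS-L) or 0.28 (SKM-1), which leaves out the spread between samples. Within this value lay the differences of SMUG1, OGG1 and XRCC1 in MDS-L and of LIG3 and POLB in SKM-1, and all other member differences were larger.

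**Figure D3:**
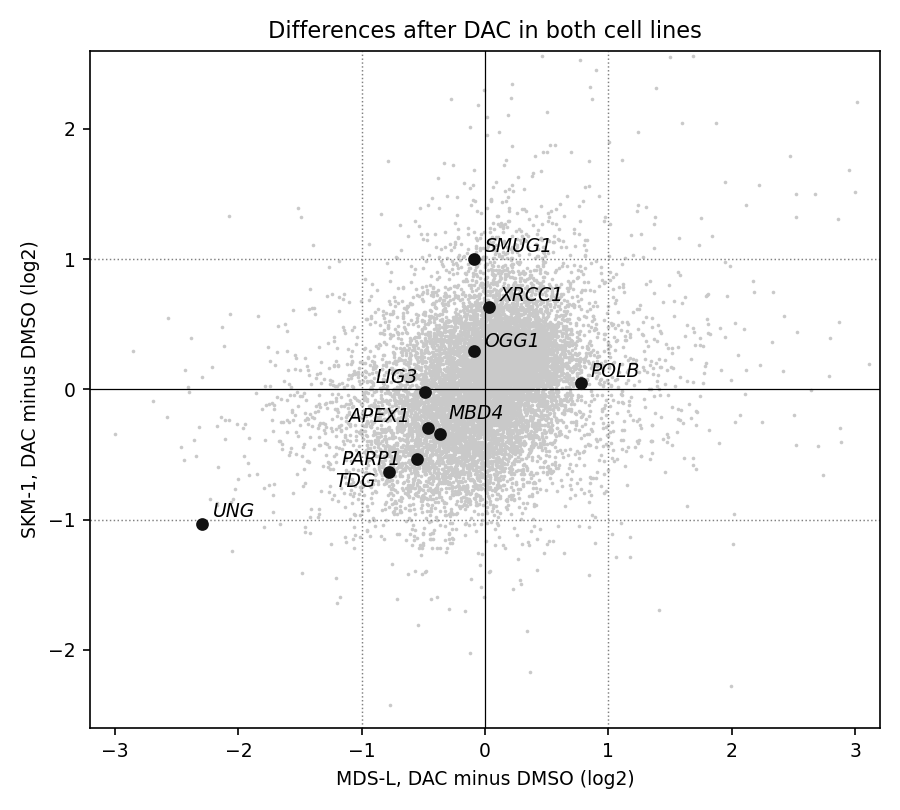
The difference DAC minus DMSO in MDS-L (horizontal axis, log2) against that in SKM-1 (vertical axis, log2) for the genes measured in both lines, 1 grey point per gene, with the 10 members in black and dotted lines at 2-fold. UNG lies at the lower left, at -2.29 and -1.03, and 19 of the 11984 genes lie outside the axes.

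An effect of DAC common to both lines was tested with limma over all 11984 genes, with cell line as a block, so that the cell lines were the only replication and 1 residual degree of freedom remained. By limma with Benjamini-Hochberg adjustment, 0 of the 10 members had an adjusted p under 0.05, as was the case for 0% of all genes. At an unadjusted p under 0.05, 2 members passed, UNG and TDG, where 11.9% of all genes did and 5.83% did with a lower value. Without the trend on mean expression, and with the median over probe sets, 3 members passed at that level. For UNG, limma gave a common difference of -1.66 with a standard error of 0.35, lower in 2 of 2 cell lines (adjusted p = 0.413). For TDG, limma gave -0.71 with a standard error of 0.22, also lower in 2 of 2 (adjusted p = 0.413). PARP1 followed by limma at -0.55 with a standard error of 0.24 (adjusted p = 0.42), and the other members had common differences between -0.38 and 0.46 with adjusted p from 0.441 to 0.853 by limma. Over the alternative settings the adjusted p of UNG by limma ran from 0.204 to 0.517. A difference between the lines in the effect of DAC could not be tested, since 4 arrays leave no residual degree of freedom for it. The UNG difference was 1.26 larger in size in MDS-L than in SKM-1, and 4.71% of genes measured in both lines had a larger gap between the lines. For SMUG1 the gap was 1.09 (7.24% of genes had a larger one), and for PARP1 it was 0.02 (96.4%).

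The same model compared the cell lines with treatment as a block. The DMSO and DAC arrays of a line were thus its only replication, with the same 1 residual degree of freedom. The p-values for the lines therefore measure no spread between repeated cultures of a line. By limma, 2 of the 10 members differed at an adjusted p under 0.05, beside 28.7% of all genes, so the share of members was not above that of all genes. POLB was higher in MDS-L, as were 14.9% of all genes by this test, with a mean of 11.95 against 8.73 and a log2 difference of 3.22 (standard error 0.27, limma adjusted p = 0.00278), higher under both treatments. UNG was lower in MDS-L, with a mean of 6.75 against 8.51 and a difference of -1.76 (standard error 0.35, limma adjusted p = 0.0204). The UNG gap between the lines was -1.13 with DMSO and -2.39 with DAC. TDG had a limma difference of 0.60, higher in MDS-L under both treatments, that did not pass (adjusted p = 0.103), and OGG1 likewise one of 0.60 (adjusted p = 0.13). 

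Around the 10 members, a wider list of base excision repair genes was read in the same way. It held 41 genes by their step in the pathway, of which 39, the members included, have a probe set with 1 gene symbol, and all 39 were measured in both lines. In MDS-L, 10 of 39 were at least 2-fold lower and 0 higher, with a median difference of -0.54, where 3.18% of all measured genes were at least 2-fold lower. In SKM-1, 1 was at least 2-fold lower, UNG, and 3 were higher, with a median of -0.09, where 1.43% and 2.71% of all measured genes were. Of the 10 lower genes in MDS-L, 8 belong to long patch synthesis and ligation, whose members also copy DNA in S phase. The remaining 2 are UNG and TDP1, an enzyme that frees DNA ends from bound topoisomerase, which stood at 9.08 and 8.06 for MDS-L and at 9.69 and 9.35 for SKM-1. TDP1 was under 2-fold in MDS-L after quantile normalization (-0.88) and with the median over probe sets (-0.94). Without the long patch genes, 2 of 23 were at least 2-fold lower in MDS-L, with a median of -0.48.

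The long patch genes are given by counts and medians, with no test of the lines against each other. In MDS-L, 15 of 16 were below 0 with a median of -0.84, beside 46.3% of all measured genes. In SKM-1, 9 of 16 were below 0 with a median of -0.16, beside 45.2% of all measured genes. There 0 were at least 2-fold lower, beside 1.43% of all measured genes. POLE2, a subunit of DNA polymerase epsilon, stood at 8.72 and 6.03 in MDS-L and at 9.13 and 9.04 in SKM-1. FEN1, the nuclease that cuts the displaced flap, stood at 10.34 and 8.74 in MDS-L (3.04-fold lower) and at 11.72 and 11.39 in SKM-1. RFC3, RFC4 and RFC5, subunits of the clamp loader, were 2.67-fold, 2.70-fold and 2.90-fold lower in MDS-L and at most 1.29-fold lower in SKM-1. With the median over probe sets, RFC3 and RFC5 were under 2-fold in MDS-L, at -0.98 and -0.60. In SKM-1, 2 of 16 were at least 2-fold higher, as were 2.71% of all measured genes. These were POLE4, a small polymerase epsilon subunit, from 9.57 to 11.14, and POLD1, the catalytic subunit of DNA polymerase delta, at 1.02, which is close to the threshold and was named after its value was seen. These DAC differences in MDS-L stood beside the markers of replicating cells given above, and their part was not tested.

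Of 11 glycosylases, 9 were below 0 in MDS-L (median -0.52) and 5 in SKM-1 (median 0.13), beside 46.3% and 45.2% of all measured genes. UNG was the only one at least 2-fold lower, as were 3.18% (MDS-L) and 1.43% (SKM-1) of all measured genes. SMUG1 was the only one at least 2-fold higher, in SKM-1, as were 2.71% there. PARP2, which acts beside PARP1, differed by 0.15 in SKM-1 and by -0.67 in MDS-L. PARG, which degrades poly(ADP-ribose), differed by -0.68 and -0.32 in the same order. With the median over probe sets, the sign turned for PARP2 in SKM-1 (-0.17) and for PARG in MDS-L (0.05). POLL, a gap-filling polymerase related to POLB, differed by 0.70 and 0.11, or by 0.25 and -0.0017 when _s_at and _x_at probe sets were left out.

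On the list of genes that keep uracil out of DNA, 4 of 5 measured genes were below 0 in MDS-L, against 2 of 5 in SKM-1. DUT, which breaks down dUTP, stood at 11.22 and 9.75 on the MDS-L arrays and at 11.90 and 11.87 on the SKM-1 arrays. TYMS, which makes the thymidine precursor from the uridine form, was 5.39-fold lower in MDS-L and differed by 0.15 in SKM-1, and TK1, thymidine kinase, differed by -1.24 and 0.73. Of 5 measured genes on this list, 3 were at least 2-fold lower in MDS-L (median -1.24) but 0 were in SKM-1 (median 0.15). Over all measured genes these shares were 3.18% and 1.43%. UNG was below its DMSO value in both lines, whereas DUT, TYMS and TK1 differed by -0.03 to 0.73 in SKM-1.

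Other repair pathways were set beside the members by counts alone. Nucleotide excision repair, which removes bulky lesions, had 0 of 15 measured genes at least 2-fold lower in MDS-L, where the median was -0.10, and had a SKM-1 median of 0.03 with GTF2H5, a small subunit of TFIIH, at 1.40 (0.80 with the median over probe sets). Mismatch repair had a median of -0.83 over 4 measured genes in MDS-L, with EXO1, an exonuclease, 4.04-fold lower, and -0.27 over 5 in SKM-1. Nonhomologous end joining had medians of -0.48 and -0.42 over 7 genes, with XRCC4, a ligase partner, 2.01-fold higher in SKM-1 (0.95 on the log2 scale with centred differences) and 1.38-fold higher in MDS-L. The median of the base excision repair members thus lay between those of nucleotide excision repair and mismatch repair in both lines, with no test of the order.

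**Figure D4:**
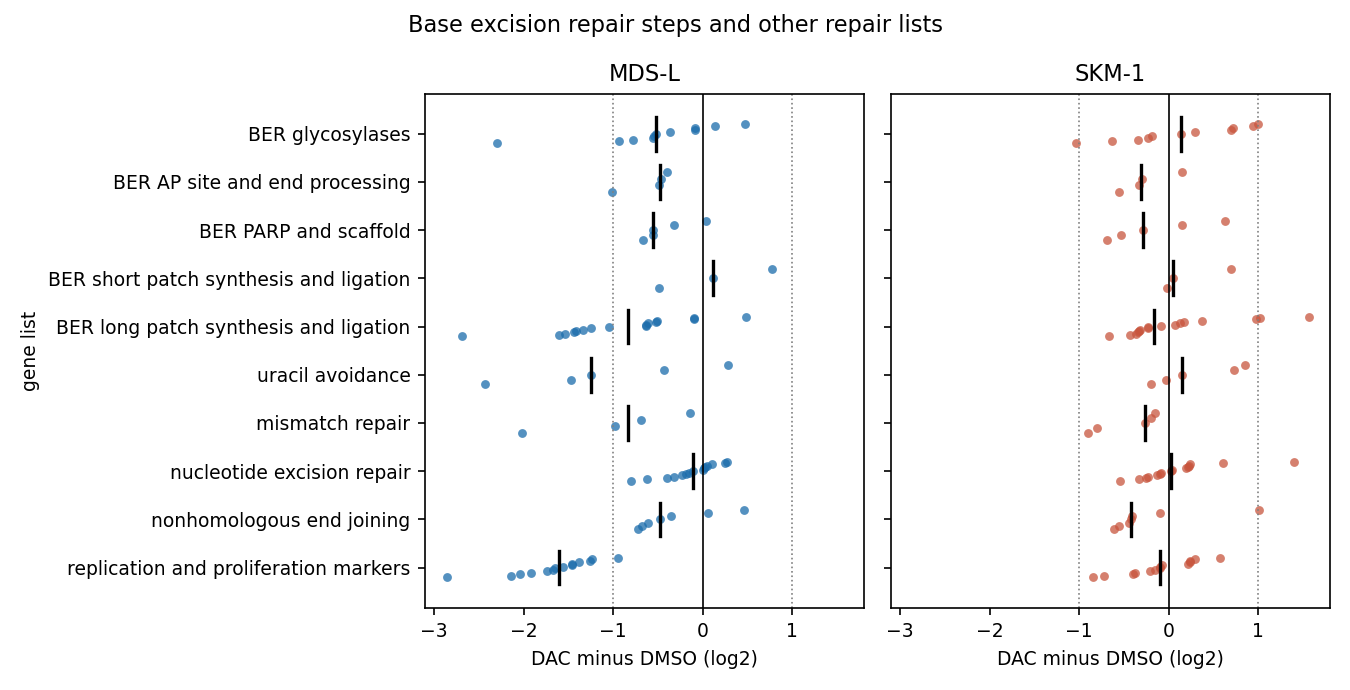
The difference DAC minus DMSO (log2, horizontal axis) of each measured gene in the base excision repair (BER) steps, other repair lists and replication markers (vertical axis), 1 point per gene, in MDS-L and SKM-1, with a black bar at each list's median and dotted lines at 2-fold. Long patch genes and replication markers lie to the left in MDS-L (medians -0.84 and -1.61) and near 0 in SKM-1 (medians -0.16 and -0.10).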

How the data were processed

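Total RNA of MDS-L and SKM-1 cells was hybridized to Affymetrix PrimeView arrays (1 array each). The values of 49395 probe sets were deposited by the authors on the log2 scale. The methods name RMA normalization in Partek Genomics Suite, whereas the submitters' processing notes name MAS5, with versions not given in the sources used here. The values ran from 2.11 to 14.99, their sorted values differed between arrays by at most 0.18, and they were used as deposited. RMA gives arrays a like distribution, so a shift common to most genes would not be seen.

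Of the probe sets, 44994 had 1 gene symbol in the array annotation, 1832 had several and 2569 were unlisted, and those with several or none were left out. A gene was represented by the probe set with the highest mean. Values under the background level were raised to it, so that a decrease ending there is only a lower bound ("at least"). A gene was measured in a line if it lay above background on at least 1 of its 2 arrays. The annotation names no genome build. Differences of at least 2-fold were counted without a test, and limma 3.58.1 in R 4.3.3 (empirical Bayes with a trend, two-sided, Benjamini-Hochberg over all genes measured in both lines) tested common effects. Python 3.11.15, numpy 2.4.6, pandas 2.3.3 and matplotlib 3.10.9 were used, and the procedures were tested on simulated data. The members and the gene lists were chosen with earlier results of these data known. Named were all members, and from each other list up to 6 genes at least 2-fold different in either line or otherwise the 2 with the largest difference, plus the 5 genes nearest to UNG. Precision is limited by the number of arrays. The 1 residual degree of freedom in limma is the disagreement between the lines in the DAC difference. Its variance is moderated over all genes by empirical Bayes, so the p-values measure no spread between replicates of a condition.

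The alternatives were thresholds of 1.5-fold and 3-fold, a background level at the 99th percentile or none, quantile normalization, centred differences, the median over probe sets, probe sets without the suffixes _s_at and _x_at, and limma without a trend.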

Additional observations from a re-analysis of the deposited data

Results flagged for a closer look

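For 2 members, all probe sets above background went opposite ways in the cell lines, and the difference between the lines was not tested. The difference in the effect of DAC, MDS-L minus SKM-1, was -1.09 for SMUG1 (2 probe sets) and -0.38 for OGG1 (4 probe sets), though in MDS-L the representing probe set of each was above 0 after quantile normalization. Among the genes named from the other lists, it was -1.66 for POLE4 (1 probe set), -1.96 for CCNA2, a cyclin of S phase and mitosis, -1.98 for TK1, -3.15 for RRM2, a subunit of ribonucleotide reductase, and -0.85 for CD34, a stem and progenitor cell marker that was at 0.01 in SKM-1.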

How the results depend on the processing

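Among the 10 members, a threshold of 1.5-fold gave 2 lower and 1 higher in MDS-L and 2 lower and 2 higher in SKM-1, and on the wider list 16 lower (MDS-L) or 4 lower (SKM-1). With 3-fold, 0 members were lower and 0 higher in SKM-1, and on the wider list 3 were lower in MDS-L but 0 in SKM-1. The shares of all measured genes at 1.5-fold and 3-fold were not computed, so the counts at these thresholds have no comparison. Under quantile normalization, 0 members and 0 wider genes were at least 2-fold lower in SKM-1, since UNG was at -0.95 there. With centred differences, 0 members were higher in SKM-1 (SMUG1 at 0.95). With the median over probe sets, 2 members (UNG and TDG) and 6 wider genes were lower in MDS-L and 0 members were higher in SKM-1. Without _s_at and _x_at probe sets, 2 members were lower in MDS-L, again UNG and TDG, and 2 wider genes were lower in SKM-1. With background at the 99th percentile, the UNG decrease in MDS-L was a bound of 1.02 (log2), because its DAC value lay under that level. The other alternatives kept these counts within 1.5 times.

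No member passed the common effect under any of the 7 alternatives, and the cell line calls of POLB and UNG held under the same 7. No paired analysis was possible because each condition has 1 array and the groups share only 1 replicate number, beyond the common effect, whose limma fit already pairs DAC with DMSO within each cell line. Leaving out a replicate was not run for the same reason. The distance of a value from background and the number of arrays limit every difference given.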
